A study of Mus musculus with 8 samples.

Results

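The genes described here are those of the androgen-making pathway of Leydig cells, 10 genes for the luteinizing hormone receptor (Lhcgr), the cholesterol carrier Star, the enzymes Cyp11a1, Hsd3b1, Hsd3b6, Cyp17a1, Hsd17b3 and Srd5a1 and the electron donors Fdx1 and Fdxr. RNA came from whole testes of 5 Ing2-/- and 3 Ing2+/+ mice, aged 2 to 3 months, and each testis sample was hybridised to its own Affymetrix Mouse Gene ST array. A gene was measured where a probe set was annotated to its symbol alone. Of the 10 genes, 7 had such a probe set, 1 each, among the 35557 probe sets and 19938 genes with a single symbol on the array, and Lhcgr, Fdxr and Srd5a1 were not analysed here. Ing2-/- mice lacked an Ing2 exon through a germline deletion. The locus was targeted in embryonic stem cells, and the exon was later excised in mice by an EIIa-Cre transgene. Mice with the deletion were bred with C57BL/6J mice, a strain other than that of the stem cells. Being in the germline, the deletion was in every cell of the testis, Leydig cells included. Ing2+/+ mice were wild-type littermates, and the labels name no treatment for either group.

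Levels are log2 values after robust multi-array averaging (RMA), which removes background, equalises the distributions of the arrays and gives 1 value per probe set. A difference of 1 on this scale is a 2-fold change. Levels of different probe sets depend on their probes and were not ranked against each other. Array medians lay between 6.46 and 6.53 in Ing2-/- and between 6.41 and 6.45 in Ing2+/+ testes. The Ing2 probe set lay between 5.06 and 5.64 in Ing2-/- testes, against 7.34 to 7.60 in Ing2+/+ testes. Ing2-/- replicate 3 stood apart, with a mean correlation of 0.983 with the other Ing2-/- arrays over all probe sets, against 0.990 to 0.992 for the other 4 Ing2-/- arrays and 0.995 for each Ing2+/+ array. Values of the steroidogenic genes are therefore also given without it.

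Leydig cells lie between the seminiferous tubules and make testosterone from cholesterol under luteinizing hormone. Star moves cholesterol to the inner mitochondrial membrane, where Cyp11a1 cleaves its side chain with electrons passed from NADPH through Fdxr and Fdx1. The pregnenolone formed leaves the mitochondria and is converted in the endoplasmic reticulum by Hsd3b enzymes and Cyp17a1, and Hsd17b3 then reduces androstenedione to testosterone. The whole testis is mostly germ cells by RNA, so that a Leydig cell transcript is a small share of the total. In whole-testis RNA, more or fewer cells of a type and more or less RNA per cell cannot be told apart.

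All 7 measured genes had higher means in Ing2-/- than in Ing2+/+ testes, with log2 fold changes from 0.44 for Star to 0.94 for Hsd17b3 and a median of 0.68, where the median over all probe sets was 0.03. With each array shifted by the median level of Sertoli markers or of other Leydig genes, however, Star (-0.12 and -0.12) and Fdx1 (-0.077 and -0.074) lay below 0. Both fold changes exceeded the median fold change of the other Leydig genes, 0.35. Their sign under that shift therefore depends on which median is taken. By limma, with p-values adjusted (Benjamini-Hochberg) across the 35557 probe sets, 5 of the 7 passed an adjusted p of 0.05, all higher in Ing2-/- testes (Cyp11a1, Fdx1, Hsd3b1, Cyp17a1 and Hsd17b3), where 1.79% of all probe sets were called higher and 3.03% lower. At an unadjusted p of 0.05, 6 of the 7 were higher (all but Hsd3b6), as were 16% of all probe sets, with 11.8% lower. The 5 called genes had no overlap between the groups, with Ing2-/- above Ing2+/+, as 14.4% of all probe sets did. The 7 fold changes stood between percentiles 93.7 and 99.8 of those of all probe sets.

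**Figure D1:**
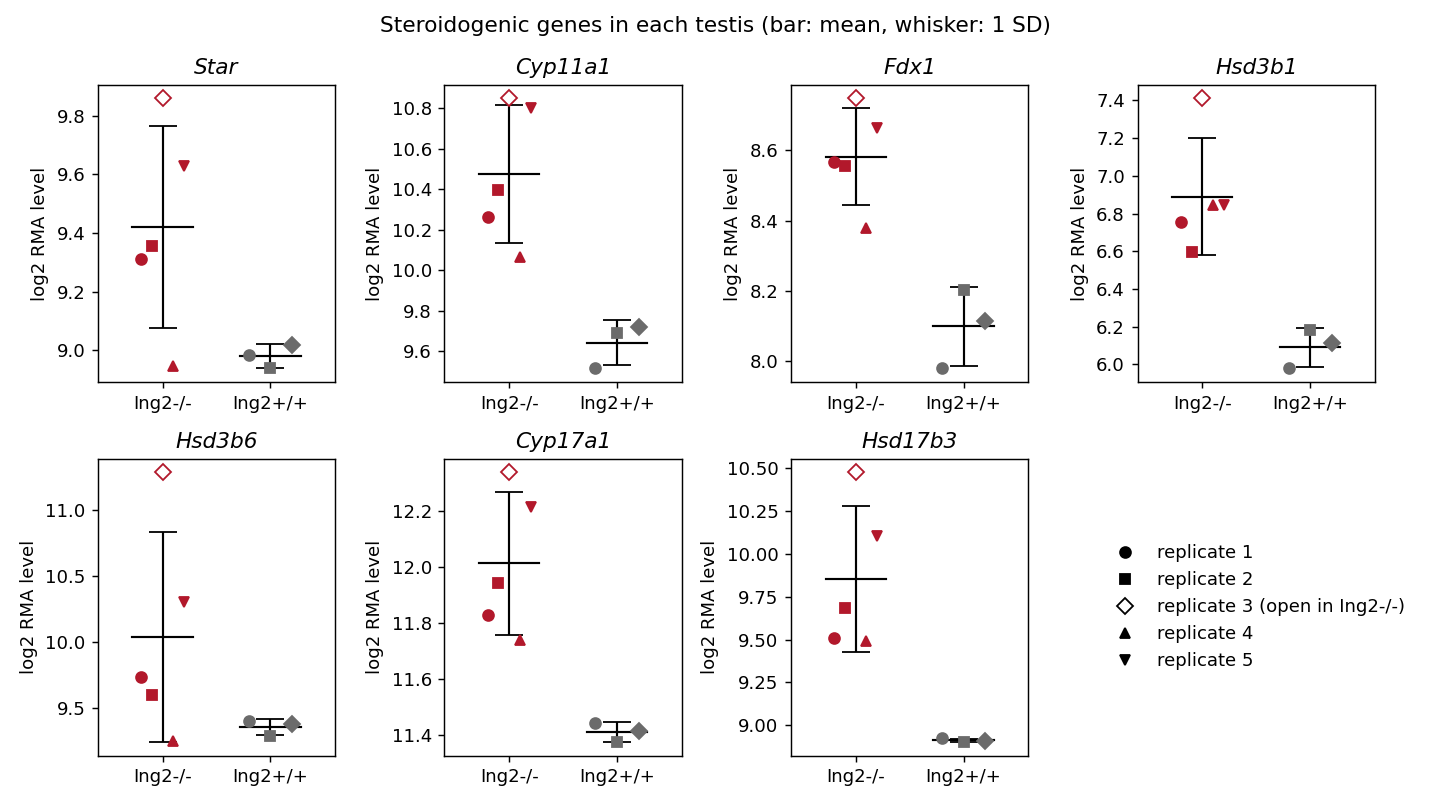
Log2 RMA level (vertical axis, own range in each panel) of the 7 measured steroidogenic genes in each testis, 5 Ing2-/- on the left and 3 Ing2+/+ on the right, with the mean and 1 SD. Ing2-/- replicate 3 (open symbol) is the highest value in all 7 panels, and the groups overlap for Star and Hsd3b6.

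Star encodes the steroidogenic acute regulatory protein, whose cholesterol transfer sets the acute rate of steroid synthesis. Its level was 9.31, 9.36, 9.86, 8.95 and 9.63 in Ing2-/- replicates 1 to 5, against 8.98, 8.94 and 9.02 in Ing2+/+ testes. Replicate 4 of the Ing2-/- testes lay within the Ing2+/+ range, and the other 4 lay above it. The log2 fold change of 0.44 (SE 0.178, 95% interval 0.04 to 0.84) did not pass (limma adjusted p = 0.152). Without Ing2-/- replicate 3 it was 0.33. Star had the smallest fold change of the measured genes.

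Cyp11a1, the side-chain cleavage enzyme that commits cholesterol to steroids, had levels of 10.26, 10.40, 10.85, 10.07 and 10.80 in Ing2-/- replicates 1 to 5, against 9.52, 9.69 and 9.72 in Ing2+/+ testes. All 5 Ing2-/- testes lay above all 3 Ing2+/+ testes, the lowest being replicate 4. The mean was 10.47 ± 0.34 in Ing2-/- (SD, n = 5) and 9.64 ± 0.11 in Ing2+/+ testes (SD, n = 3), a log2 fold change of 0.83 (SE 0.179, limma adjusted p = 0.0401). Without Ing2-/- replicate 3 it was 0.74.

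Fdx1, ferredoxin, hands single electrons to the mitochondrial cytochromes P450 and had the smallest spread of the called genes in Ing2-/- testes. Its level was 8.57, 8.56, 8.75, 8.38 and 8.66 in Ing2-/- replicates 1 to 5, against 7.98, 8.20 and 8.12 in Ing2+/+ testes. The groups did not overlap. Fdx1 rose by 0.48 (log2, SE 0.0941, limma adjusted p = 0.0303), but lay below 0 with arrays scaled to Sertoli markers (-0.077) or to other Leydig genes (-0.074). These signs depend on scaling by the median of levels rather than by the median fold change. Without Ing2-/- replicate 3 the fold change was 0.44. Fdx1 also serves mitochondrial cytochromes P450 outside Leydig cells.

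Promoter windows are shown for 4 of the genes (Cyp11a1, Hsd3b1, Hsd3b6 and Hsd17b3), not for every gene that was called. They are taken from RefSeq on GRCm38.p6, from 250 bases before to 50 bases after the annotated start. RefSeq windows were found for 8 of the 10 genes (all but Star and Cyp17a1). Capitals mark AGGTCA, the core bound by Nr5a1 (steroidogenic factor), the nuclear receptor that drives most of this pathway, or AGATAA, the motif of GATA transcription factors, on either strand. The window of Fdx1, which was also called, holds neither and is not printed. For Cyp11a1 RefSeq gives more than 1 start, and the downstream window (chr9:58014702-58015001, plus strand) is printed because it holds AGGTCA, at -28 from the start.
Cyp11a1: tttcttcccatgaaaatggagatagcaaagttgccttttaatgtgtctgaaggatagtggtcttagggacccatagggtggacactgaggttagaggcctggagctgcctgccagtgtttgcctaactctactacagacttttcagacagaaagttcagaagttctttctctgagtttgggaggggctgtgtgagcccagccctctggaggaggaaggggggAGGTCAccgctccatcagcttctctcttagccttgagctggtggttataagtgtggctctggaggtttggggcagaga

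Hsd3b1 and Hsd3b6 encode hydroxysteroid dehydrogenases with isomerase activity, which turn pregnenolone into progesterone. In the mouse, Hsd3b6 is known as the form of adult Leydig cells and Hsd3b1 as the form of fetal Leydig cells and the adrenal, also kept in the adult testis. The genes are close copies of each other in a cluster, with 1 other annotated gene between them and none that encodes a protein. Probe sequences were not used here, so how far each probe set reads the other transcript is not known. Hsd3b1 was at 6.75, 6.59, 7.41, 6.85 and 6.85 in Ing2-/- replicates 1 to 5, against 5.98, 6.18 and 6.11 in Ing2+/+ testes. The groups did not overlap, and the mean of 6.89 ± 0.31 in Ing2-/- against 6.09 ± 0.10 in Ing2+/+ testes gave a log2 fold change of 0.80 (SE 0.164, limma adjusted p = 0.0360), and 0.67 without Ing2-/- replicate 3. The probe set was dim. It lay 1.05 to 1.79 above the median of probe sets without a gene symbol in Ing2-/- arrays and 0.47 to 0.71 above it in Ing2+/+ arrays, where background can compress a difference.

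Hsd3b6 varied most of the 7 genes. Its level was 9.74, 9.60, 11.29, 9.25 and 10.30 in Ing2-/- replicates 1 to 5, against 9.40, 9.29 and 9.38 in Ing2+/+ testes. Replicate 4 of the Ing2-/- testes lay below all Ing2+/+ testes, and replicate 3 lay 1.93 above the Ing2+/+ mean, the largest deviation of any of the 7 genes. The SD was 0.80 in Ing2-/- and 0.06 in Ing2+/+ testes. The log2 fold change of 0.68 (SE 0.394, 95% interval -0.21 to 1.58, limma adjusted p = 0.295) did not pass, and it was 0.37 without replicate 3. Within arrays, the log2 ratio of Hsd3b1 to Hsd3b6 changed by 0.12 (exact permutation p = 0.714, two-sided).

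Other genes of the Hsd3b cluster lay near background. Hsd3b2 averaged 4.002 ± 0.072 in Ing2-/- and 4.008 ± 0.077 in Ing2+/+ testes (SD), and Hsd3b5 averaged 4.07 ± 0.10 in Ing2-/- and 4.07 ± 0.10 in Ing2+/+ testes. Hsd3b3 averaged 4.57 ± 0.38 in Ing2-/- and 4.31 ± 0.02 in Ing2+/+ testes, and all 3 genes lay below the median of unnamed probe sets. The windows of Hsd3b1 (chr3:98859745-98860044, minus strand) and Hsd3b6 (chr3:98814394-98814693, minus strand) each hold AGATAA once, at -134 on the reverse strand in Hsd3b1, where it reads TTATCT, and at -31 in Hsd3b6. They are printed to let the copies be compared.
Hsd3b1: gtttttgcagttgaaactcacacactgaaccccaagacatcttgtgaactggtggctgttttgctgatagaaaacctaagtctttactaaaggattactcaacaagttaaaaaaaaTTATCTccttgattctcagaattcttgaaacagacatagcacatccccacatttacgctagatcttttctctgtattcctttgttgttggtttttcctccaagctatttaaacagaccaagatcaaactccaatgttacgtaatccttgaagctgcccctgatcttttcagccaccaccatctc
Hsd3b6: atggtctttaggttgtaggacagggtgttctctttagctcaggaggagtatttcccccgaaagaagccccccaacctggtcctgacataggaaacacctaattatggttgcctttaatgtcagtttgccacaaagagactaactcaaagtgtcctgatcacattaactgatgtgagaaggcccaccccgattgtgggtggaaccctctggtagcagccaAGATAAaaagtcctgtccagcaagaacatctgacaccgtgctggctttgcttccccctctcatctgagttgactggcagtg

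Cyp17a1 has hydroxylase and lyase activities that turn progestins into androgens. Its level was 11.83, 11.94, 12.34, 11.74 and 12.22 in Ing2-/- replicates 1 to 5, against 11.44, 11.38 and 11.41 in Ing2+/+ testes. The groups did not overlap. The mean was 12.01 ± 0.26 in Ing2-/- (SD, n = 5) and 11.41 ± 0.03 in Ing2+/+ testes (SD, n = 3), a log2 fold change of 0.60 (SE 0.136, limma adjusted p = 0.0451). It was 0.52 without Ing2-/- replicate 3.

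Hsd17b3 is the testis enzyme of the last step, from androstenedione to testosterone. It had the largest fold change of the 7 and the smallest spread among Ing2+/+ testes. Its level was 9.51, 9.68, 10.48, 9.49 and 10.10 in Ing2-/- replicates 1 to 5, against 8.92, 8.90 and 8.91 in Ing2+/+ testes, and the groups did not overlap. The log2 fold change was 0.94, or 1.92-fold (SE 0.215, limma adjusted p = 0.0461), and 0.79 without Ing2-/- replicate 3. The Hsd17b3 window (chr13:64089152-64089451, minus strand), shown because this gene changed most, holds none of the motifs searched.
Hsd17b3: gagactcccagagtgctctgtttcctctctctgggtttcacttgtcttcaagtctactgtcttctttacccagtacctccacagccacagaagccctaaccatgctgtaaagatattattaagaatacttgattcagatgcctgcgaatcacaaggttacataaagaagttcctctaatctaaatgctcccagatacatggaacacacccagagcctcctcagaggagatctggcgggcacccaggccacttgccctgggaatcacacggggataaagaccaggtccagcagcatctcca

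The letters searched, on both strands, were AGGTCA, the longer AAGGTCA that contains it, AGATAA, the cyclic AMP response element TGACGTCA, TATAAA and the GC box GGGCGG. Over all 32851 RefSeq windows of the same length, AGGTCA stood in 16.3%, AAGGTCA in 4.72%, AGATAA in 11.2%, TGACGTCA in 1.79%, TATAAA in 13.6% and GGGCGG in 35.7%. Among the 8 genes with a window, AGGTCA stood in 2 (Lhcgr and Cyp11a1), AGATAA in 2 (Hsd3b1 and Hsd3b6), GGGCGG in 5 (Lhcgr, Cyp11a1, Fdx1, Fdxr and Srd5a1) and the other 3 in 0. The shares are per window, whereas a gene counts here if any of its windows holds the letters. Cyp11a1, with more than 1 window, holds AGGTCA only in the downstream window and GGGCGG only in the upstream window. Its counts are therefore favoured against the shares. The array does not read which start was used.

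The calls lay close to the threshold, with adjusted p-values from 0.0303 to 0.0461, and depended on which array was left out. All 5 stood without Ing2-/- replicate 3 or without replicate 4, 1 (Hsd3b1) stood without replicate 2, and 0 stood without Ing2-/- replicate 1 or 5 or without any single Ing2+/+ array (5 or 6 of the 7 at an unadjusted p of 0.05 in each of these fits). By the exact permutation test over the 56 splits of the arrays, Cyp11a1, Fdx1, Hsd3b1 and Hsd17b3 each had p = 0.0179, the smallest this design allows, Cyp17a1 had p = 0.0357, Star p = 0.0893 and Hsd3b6 p = 0.196 (two-sided, each for 1 gene).

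The genes varied together among Ing2-/- testes. Replicate 3 had the highest level for 7 of 7 genes, and replicate 4 the lowest for 6, Hsd3b1 being lowest in replicate 2. The mean of the 7 genes above the Ing2+/+ mean was 0.50, 0.52, 1.21, 0.32 and 0.87 in Ing2-/- replicates 1 to 5, against -0.04, 0.01 and 0.03 in the Ing2+/+ testes. All 5 Ing2-/- values lay above the Ing2+/+ values, and they spread over a far wider range. The points share their arrays and the scaling of each array.

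Markers of Sertoli cells and macrophages varied with these genes from testis to testis, and round spermatid markers varied in the opposite direction. Endothelial marker means were highest in replicate 2 instead, at 0.20, 0.25, 0.23, 0.10 and 0.14 in Ing2-/- replicates 1 to 5. Sertoli cell markers, genes of the nurse cells of the tubules, were higher on average in Ing2-/- testes for 22 of 22 measured genes with a median log2 fold change of 0.48. Of the 22, 1 was called (Defb36), 17 passed an unadjusted p of 0.05 and 19 did not overlap between the groups. Over all genes, 1.97% were called higher and 16.7% lay higher without overlap. At an unadjusted p of 0.05, 16% of all probe sets were higher. The mean of the Sertoli markers lay 0.29 to 1.06 above the Ing2+/+ mean in Ing2-/- testes, against -0.02 to 0.01 in Ing2+/+ testes. Macrophage markers were above 0 for 14 of 14 genes (median 0.33, 0 called by limma or by the random variance model, 8 at an unadjusted p of 0.05), at 0.10 to 0.59 in Ing2-/- and -0.01 to 0.01 in Ing2+/+ testes. Round spermatid markers were below 0 for 18 of 18 genes (median -0.30). By limma 1 was called (Catsper1, limma adjusted p = 0.0498), where 3.01% of all genes were called lower, and 0 by the random variance model. The round spermatid mean lay at -0.79 to -0.16 in Ing2-/- and -0.02 to 0.03 in Ing2+/+ testes. The Sertoli, macrophage and round spermatid means were each most extreme in Ing2-/- replicate 3. Each was nearest to Ing2+/+ in replicate 4, except that the Sertoli mean was lowest in replicate 2.

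**Figure D2:**
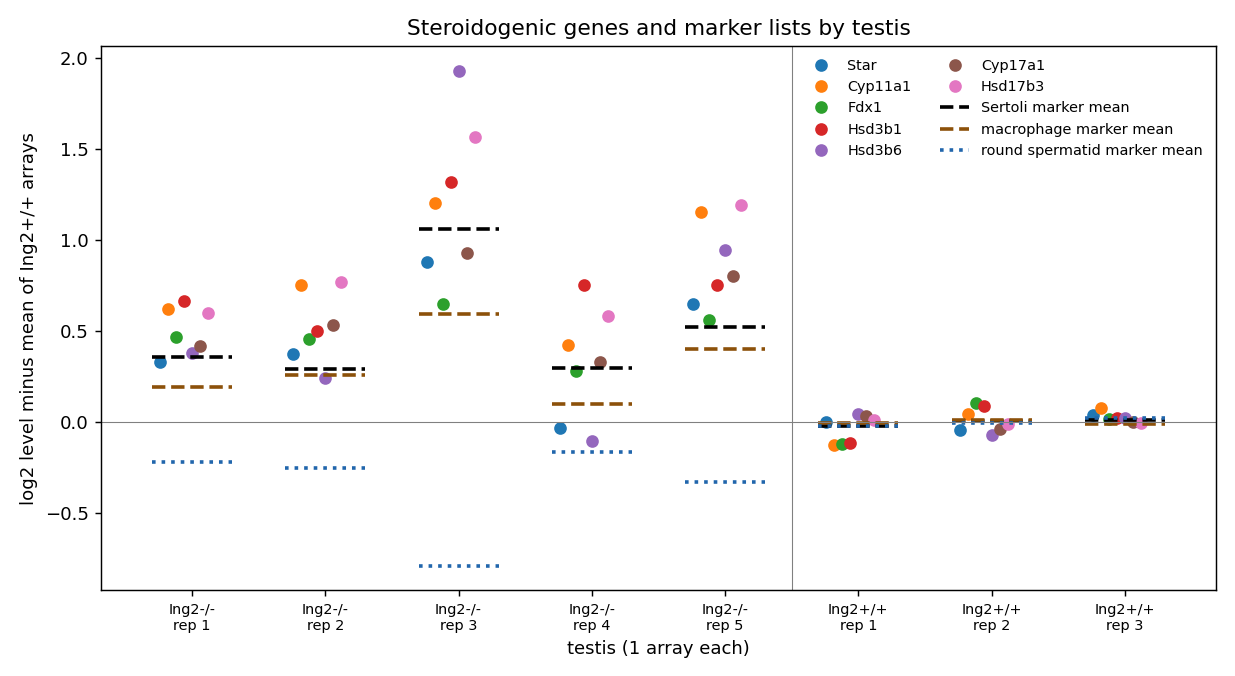
Log2 level minus the Ing2+/+ mean (vertical axis) in each of the 8 testes, Ing2-/- on the left, for the 7 steroidogenic genes (points) and the mean of 3 marker lists (bars). In Ing2-/- replicate 3 the genes lie between 0.65 and 1.93, the Sertoli mean at 1.06 and the round spermatid mean at -0.79.

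Set against Sertoli markers in the same array, the difference between the groups was small. The median deviation of the 7 genes minus that of the Sertoli markers was 0.10, 0.07, 0.13, -0.04 and 0.26 in Ing2-/- replicates 1 to 5, against 0.09, -0.02 and -0.06 in Ing2+/+ testes. The groups overlapped. With each array set to the same Sertoli marker median, the fold changes were -0.12 for Star, 0.27 for Cyp11a1, -0.077 for Fdx1, 0.24 for Hsd3b1, 0.12 for Hsd3b6, 0.042 for Cyp17a1 and 0.38 for Hsd17b3. None was called by limma (1 of 7, Hsd17b3, at an unadjusted p of 0.05, adjusted p = 0.0588). The median level of the list, taken in each array, was 0.56 higher in Ing2-/- than in Ing2+/+ arrays for the Sertoli markers and 0.56 higher for the other Leydig genes, and each shift took that amount off every fold change. It is a median of levels and differs from the median of the genes' fold changes, 0.479 for the Sertoli markers and 0.35 for the other Leydig genes. Star (0.44) and Fdx1 (0.483) lay above that 0.35, so their sign under the shift to other Leydig genes depends on which median is taken. Fdx1 also lay just above the Sertoli 0.479, and Star below it. The Sertoli shift moved the median of all probe sets to -0.53. The 7 genes lay 0.41 to 0.91 above that median, a distance that no such shift can change. The part of the cell mix in the changes of these genes was not tested.

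**Figure D3:**
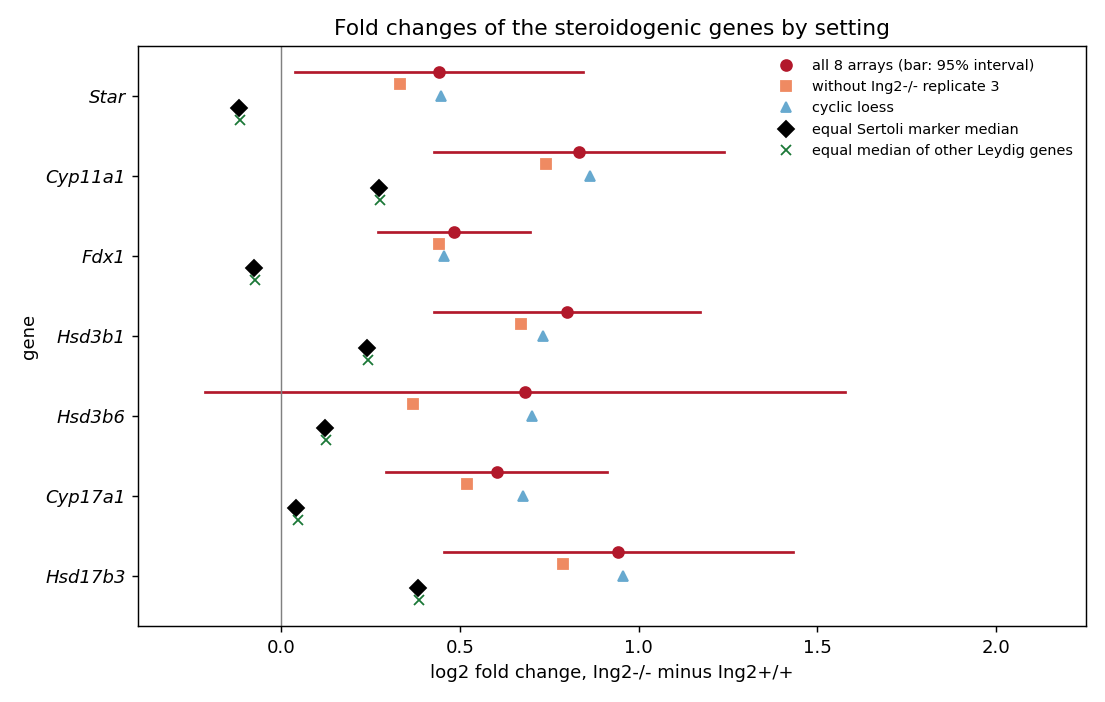
Log2 fold change, Ing2-/- minus Ing2+/+ (horizontal axis), of each gene with all 8 arrays (bar, 95% interval), without Ing2-/- replicate 3, after cyclic loess and with arrays shifted to an equal median of Sertoli markers or of other Leydig genes. Star and Fdx1 fall below 0 under both shifts, and Hsd17b3 keeps the largest value in each setting shown. The shifts use the median of levels, and the sign of Star and Fdx1 under the Leydig shift depends on that choice.

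Within an array the scaling cancels between genes, so each of the 21 pairs of the 7 genes was also compared as a log2 ratio. Ing2-/- minus Ing2+/+, the log2 ratio of Star to Cyp11a1 differed by -0.39, that of Star to Hsd17b3 by -0.50 and that of Cyp11a1 to Cyp17a1 by 0.23. These 3 ratios had the smallest p the design allows (exact permutation p = 0.0179 each, two-sided), but no pair passed after adjustment over the 21 (adjusted p = 0.125). In all, 8 of the 21 ratios did not overlap between the groups. The share without overlap over all pairs of genes was not computed, and the 21 ratios reuse the same 7 genes. The count is therefore not read as a result. The other 5 of the 8 were those of Star to Cyp17a1 (-0.16), Fdx1 to Hsd17b3 (-0.46), Fdx1 to Hsd3b1 (-0.32), Cyp17a1 to Hsd17b3 (-0.34) and Cyp11a1 to Fdx1 (0.35).

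Leydig cells were also followed by genes outside the 10, some of them steroid enzymes, of which 8 of 13 were measured. Of these, 6 lay above 0, with a median of 0.35, and 0 were called by limma or by the random variance model. At an unadjusted p of 0.05, 3 were higher, as were 16% of all probe sets. Vcam1, an adhesion molecule, averaged 10.04 ± 0.47 in Ing2-/- and 9.06 ± 0.07 in Ing2+/+ testes, a log2 fold change of 0.97 (limma adjusted p = 0.0528). Pdgfra, a growth factor receptor of the Leydig lineage, averaged 8.78 ± 0.56 in Ing2-/- and 7.86 ± 0.05 in Ing2+/+ testes, a log2 fold change of 0.92 (limma adjusted p = 0.0861). The groups did not overlap for either gene. Hsd11b1 and Akr1c14, markers of mature Leydig cells, were dim, below the median of unnamed probe sets in both groups, and had log2 fold changes of -0.071 and -0.0045. Sult1e1, an estrogen sulfotransferase, averaged 8.03 ± 0.49 in Ing2-/- and 7.90 ± 0.04 in Ing2+/+ testes, a log2 fold change of 0.13 (limma adjusted p = 0.782). Ptgds, a prostaglandin synthase, averaged 9.58 ± 0.33 in Ing2-/- and 9.32 ± 0.07 in Ing2+/+ testes, a log2 fold change of 0.26 (limma adjusted p = 0.361). These brighter genes, whose groups overlapped, are named beside the dim pair after their values were seen.

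Markers of fetal Leydig cells and of the adrenal cortex, which shares the first steps of the pathway, were measured for 5 of 6 genes. None was called by limma or by the random variance model, and none passed an unadjusted p of 0.05. Cyp21a1 and Cyp11b1, adrenal enzymes of corticosteroid synthesis, had log2 fold changes of 0.18 and -0.081, and the receptor Mc2r averaged 3.78 ± 0.11 in Ing2-/- and 3.71 ± 0.27 in Ing2+/+ testes, below the median of unnamed probe sets.

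Upstream of the enzymes, 16 of 18 genes of gonadotropin signalling and steroidogenic transcription were measured. None was called by limma or by the random variance model. At an unadjusted p of 0.05 there were 9 higher and 3 lower in Ing2-/- testes, where 16% of all probe sets were higher and 11.8% lower. Nr5a1 and Gata4, regulators whose motifs were searched above and which Sertoli cells also express, had log2 fold changes of 0.56 (limma adjusted p = 0.117) and 0.55 (limma adjusted p = 0.0797), and both are named for the motifs. Of the protein kinase A system, Prkar2a, a regulatory subunit, had -0.58 (limma adjusted p = 0.0794) and Akap1, which anchors the kinase at mitochondria, had -0.44 (limma adjusted p = 0.0741). Another regulatory subunit, Prkar1a, had 0.14 (limma adjusted p = 0.222), and Creb1 of the same list had 0.16 (limma adjusted p = 0.153). Both were higher in Ing2-/- testes without overlap and are named after their values were seen. Prkaca and Gnas were not measured.

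Of the genes that supply cholesterol and bring it to mitochondria, 11 of 14 were measured and 2 were called, both higher in Ing2-/- testes, where 1.97% of all genes were called higher and 3.01% lower. Npc2, which moves cholesterol out of lysosomes, was at 8.47, 8.40, 8.61, 8.45 and 8.40 in Ing2-/- replicates 1 to 5, against 7.87, 8.09 and 8.03 in Ing2+/+ testes, with a log2 fold change of 0.47 (SE 0.0779, limma adjusted p = 0.0201). Stard4, a cytosolic sterol carrier, was at 7.11, 6.78, 7.02, 6.85 and 6.99 in Ing2-/- replicates 1 to 5, against 6.25, 6.52 and 6.62 in Ing2+/+ testes, with a log2 fold change of 0.48 (SE 0.107, limma adjusted p = 0.0430). Neither gene's groups overlapped, and with Sertoli markers made equal Npc2 was at -0.092 and Stard4 at -0.077. Unlike the steroidogenic genes, Stard4 was not highest in Ing2-/- replicate 3.

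Other steroid enzymes and electron donors, 25 of 29 measured, had a median of 0.06, and 0 were called by limma or by the random variance model. At an unadjusted p of 0.05, 7 were higher and 0 lower, where 16% of all probe sets were higher and 11.8% lower. Hsd17b7, an enzyme of cholesterol synthesis that also acts on estrogens, had a log2 fold change of 0.65 (limma adjusted p = 0.0528), and Cyb5r3, the reductase of cytochrome b5, had 0.54 (limma adjusted p = 0.0546). Cyb5a, the cytochrome b5 that aids the lyase step of Cyp17a1, had 0.44 (limma adjusted p = 0.202) and is named for that role. Of the androgen-responsive genes, 3 of 5 were measured and 0 were called by limma or by the random variance model (2 at an unadjusted p of 0.05). Eppin and Tubb3, genes of Sertoli cells, had log2 fold changes of 0.46 and 0.41 (limma adjusted p = 0.0568 and 0.0710).

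**Figure D4:**
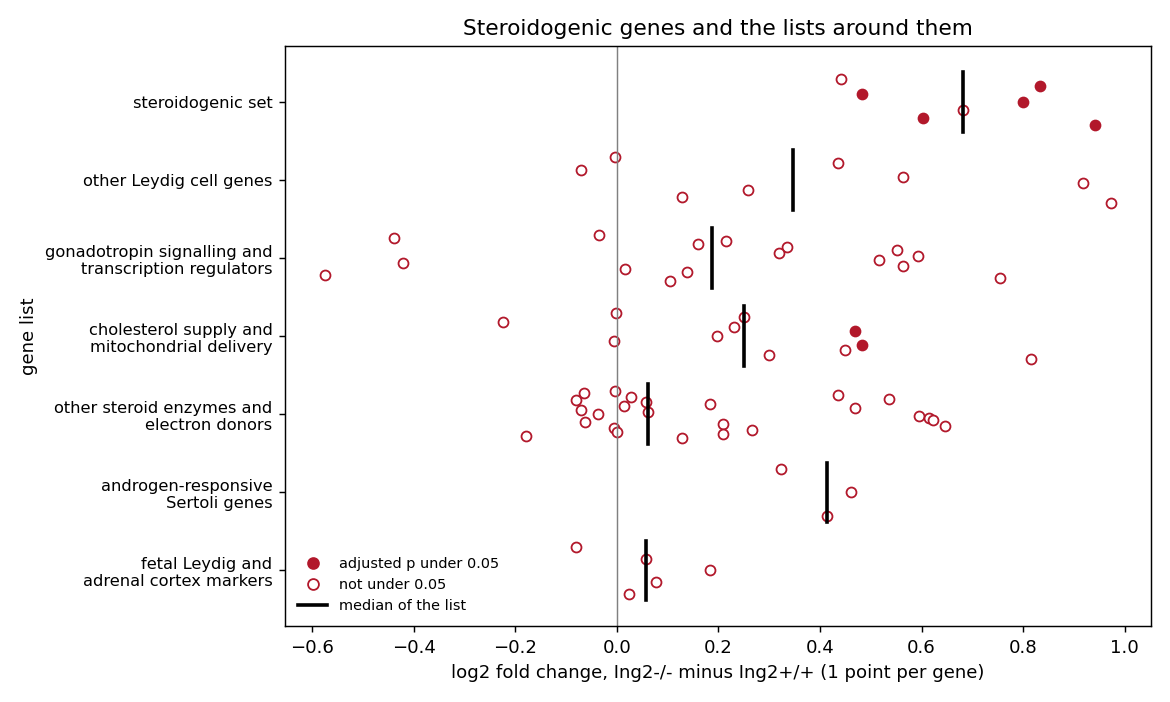
Log2 fold change, Ing2-/- minus Ing2+/+ (horizontal axis), of each measured gene in the steroidogenic set and 6 lists around it, filled where adjusted p was under 0.05, with the median of each list. Filled points are 5 of 7 steroidogenic genes and 2 of 11 genes of cholesterol supply. Star, Fdx1, Npc2 and Stard4 lie below 0 once the median level of Sertoli markers is made equal between arrays.

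The genes most like the 7 in their pattern were found from the root mean square difference, over the 8 arrays, between a gene's level minus its Ing2+/+ mean and the median of the same quantity over the 7 genes. The 5 nearest were Ttc7b (0.0344), Klf6 (0.0480), Itprid2 (0.0495), Malat1 (0.0517) and Cpt1a (0.0521). Their log2 fold changes lay between 0.65 and 0.68, which follows from how they were chosen.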

How the data were processed

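Whole-testis total RNA (Trizol) of 5 Ing2-/- and 3 Ing2+/+ mice was hybridised to 1 array per mouse. The deposited log2 values were made by the authors with RMA in Affymetrix Expression Console, its version not given in the sources used here. Total RNA per testis leaves no trace in such values, and the number of arrays limits the precision. The platform annotation gave 1 symbol to 21789 probe sets, several to 1621 and none to 12147. Symbols were updated with the GRCm38.p6 gene table. The annotation's build is not used for coordinates, and promoter windows are RefSeq's on GRCm38.p6.

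Groups were compared as Ing2-/- minus Ing2+/+ with limma 3.58.1 in R 4.3.3 (lmFit, eBayes) over all 35557 probe sets, with Benjamini-Hochberg adjustment and a threshold of 0.05. The fit was tested on simulated data. A gene of a list was read from its brightest probe set, and its log2 SD, SE and interval come from the arrays and the fit. Named were the measured genes, Ing2, up to 4 called genes of each list (or the 2 of smallest p) and the 5 genes most alike in pattern, besides those said to be named otherwise. The members and lists, and the motifs, were chosen with earlier results of these data known, and AGGTCA was added after the longer AAGGTCA had matched no member. Tried as alternatives were a replicate block, leaving out each array, brighter probe sets or those with 1 symbol only, cyclic loess, arrays set to the same median of Sertoli markers or of other Leydig genes, the methods' random variance model, an intensity trend with robust estimation, each probe set's own variance, and array weights. Plots used matplotlib 3.10.9 (Python 3.11.15).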

Additional observations from a re-analysis of the deposited data

Results flagged for a closer look

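Of the 32 genes named by rule, 1 had an Ing2-/- testis far from the other 4 of its group: Prkar2a, the protein kinase A subunit, was at 8.91 in Ing2-/- replicate 3 and between 9.51 and 9.73 in the other 4. The gap was 0.738 of the group's whole range, above the limit of 0.71 for 5 samples. Chance alone marks about 1 in 20 groups. None of the 7 steroidogenic genes passed that limit, although replicate 3 was their highest testis. The groups of 3 were too small for this comparison.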

How the results depend on the processing

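The number of steroidogenic genes called, 5 with all arrays, was 5 under 4 of the alternatives (brighter probe sets, probe sets with 1 symbol, the random variance model and array weights), 4 with an intensity trend, 3 after cyclic loess (Cyp17a1 and Hsd17b3 lost, with fold changes of 0.68 and 0.96 against 0.60 and 0.94), and 0 with each probe set's own variance (5 at an unadjusted p of 0.05) or with arrays set to the same median of Sertoli markers (1 at an unadjusted p of 0.05) or of other Leydig genes (0). Leaving out 1 array at a time gave 0 to 5. All 7 fold changes stayed above 0 in those fits. Replicate numbers are shared between the groups, and the labels do not say that they pair mice. Deviations of same-numbered arrays correlated at -0.06, 0.18 and 0.01, against -0.11 to 0.14 for differently numbered arrays. So few values cannot decide whether the numbers pair mice. With the number as a block 0 of the 7 genes, 0 genes of the lists around them and 0 of all probe sets were called (6 of the 7, 21 list genes higher and 3 lower, and 4531 probe sets higher and 3449 lower at an unadjusted p of 0.05). In that fit Ing2-/- replicates 4 and 5, with no Ing2+/+ array of the same number, add nothing to the difference between the groups. Ing2 itself was not called there (limma adjusted p = 0.0612). The loss of calls is therefore not read as an effect of pairing.

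Over all probe sets 1713 were called, 184 with their own variances, 6565 with array weights, 2591 with arrays at an equal median of other Leydig genes, 21825 at an equal Sertoli median, and 49 to 5006 with 1 array left out (49 without Ing2+/+ replicate 2, 5006 without Ing2-/- replicate 3). The share called higher was 37.1%, against 24.2% after cyclic loess, 55.3% with array weights, 47.4% among brighter probe sets, 0.137% at an equal Sertoli median and 0.347% at an equal median of other Leydig genes. Of the 60 genes in the 6 lists around the pathway 2 were called, 7 among brighter probe sets, 7 among those with 1 symbol, 0 with their own variances, 21 with array weights, 23 at an equal Sertoli median (all lower) and 0 to 19 with 1 array left out, 19 being without Ing2-/- replicate 3.

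Both shifts moved the median of all probe sets from 0.03 to -0.53 and turned 12 of the 32 named genes below 0. At equal Sertoli and equal other-Leydig medians, Star was at -0.12 and -0.12, Fdx1 at -0.077 and -0.074, Stard4 at -0.077 and -0.073, Npc2 at -0.092 and -0.089, Cyb5r3 at -0.024 and -0.020, Eppin at -0.099 and -0.095, Tubb3 at -0.15 and -0.14, Cyp21a1 at -0.38 and -0.37, Mrc1 at -0.16 and -0.16, Cd68 at -0.18 and -0.17, Kdr at -0.074 and -0.070, and Smtn at -0.26 and -0.25. This follows from how the shifts are made: they lower the Ing2-/- mean of every probe set by the same amount. That amount, and with it some of these signs, depends on using the median of levels rather than of fold changes. With 3 Ing2+/+ testes, no exact test can go below p = 0.0179, and Hsd3b1 was dim enough for background to limit its fold change.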

Other observations

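Among other somatic cells of the testis, endothelial markers had a median log2 fold change of 0.21 over 10 measured genes, 9 of them above 0, and Kdr, a receptor for vascular endothelial growth factor, was called higher in Ing2-/- testes (6.36 ± 0.17 in Ing2-/- and 5.87 ± 0.08 in Ing2+/+ testes, log2 fold change 0.49, limma adjusted p = 0.0367), although it lay at -0.07 once Sertoli markers were made equal between arrays. Their mean in Ing2-/- replicate 3, 0.23, lay below the 0.25 of replicate 2. Peritubular myoid markers, genes of the contractile cells around the tubules, had a median of 0.26 over 10 genes, with 0 called by limma or by the random variance model. At an unadjusted p of 0.05, 6 were higher and 1 lower, where 16% of all probe sets were higher and 11.8% lower. Actg2, a smooth muscle actin, had a log2 fold change of -0.48 (limma adjusted p = 0.0879) and Smtn, smoothelin, 0.30 (limma adjusted p = 0.110; -0.26 after the same shift). The resident macrophage genes Mrc1 and Cd68, whose cells lie beside Leydig cells, had 0.40 and 0.38 (limma adjusted p = 0.0612 and 0.0726; -0.16 and -0.18 after the same shift).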
